A study of Caenorhabditis elegans with 33 samples.

Results

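The genes described here are the most heavily covered targets of Mutator-class small interfering RNAs (siRNAs) in adult Caenorhabditis elegans. They are the 300 entries with the highest mean level over the 3 wild type adult libraries, taken from the 2407 entries of the authors' Mutator siRNA table that are not also in their CSR-1 siRNA table. The whole Mutator table has 2434 entries, of which 27 are shared with the CSR-1 table and were left out. The members were chosen by their siRNA levels in the 3 wild type adults, which are given below as a description only, with no test. Levels are RPM, the reads of all siRNAs of an entry scaled to a fixed library total, and are not divided by gene length, so a high rank can come with a long target.

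Mutator-class siRNAs are secondary small RNAs, known as 22G-RNAs for their usual length and their first base. RNA-dependent RNA polymerases make them on a target transcript at perinuclear foci that contain the Mutator proteins, after a primary small RNA has marked that transcript. They are loaded into worm-specific Argonautes of the WAGO clade, which silence genes, pseudogenes and transposons, and they differ from CSR-1 siRNAs, which cover germline-expressed genes that stay active.

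The series examined ALG-1, ALG-2 and ALG-5, Argonautes of the AGO clade that bind microRNAs, and the siRNA tables come from the same small RNA libraries. Adult small RNA libraries were made at 68 h after L1 synchronization from wild type N2 (3 libraries) and, with 1 library each, from alg-5(tm1163), alg-2(ok304) and alg-1(gk214). Input and immunoprecipitate of tagged proteins came from adults carrying alg-1::HA::alg-1 in alg-1(gk214), alg-2::HA::alg-2 in alg-2(ok304), alg-1::HA::alg-2 in alg-1(gk214) and alg-5::3xHA::alg-5 in alg-5(tm1163). In this order the strains are called HA::ALG-1, then HA::ALG-2, then ALG-1::HA::ALG-2 (tagged alg-2 in an alg-1 context, as the genotype reads) and HA::ALG-5. Late L4 larvae at 49 h gave 1 library each of wild type, of alg-5(ram2), and of the input and the immunoprecipitate of GFP::3xFLAG::alg-5, tagged at its own locus. Messenger RNA was measured in whole L4 larvae of wild type and of the mutants alg-2(ok304), alg-1(gk214), alg-5(ram2) and alg-5(tm1163), with 3 libraries each. These larvae were taken at 49 h, apart from alg-1(gk214), taken at 53 h so that stages matched. No label says that replicates came from separate cultures, so each p-value measures the spread between libraries only. All samples are whole animals, in which fewer cells of a type and less RNA per cell cannot be told apart.

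The column names number 4 small RNA experiments, treated here as batches. Experiment 1 holds wild type adult 1 and the pairs of HA::ALG-1, of HA::ALG-2 and of ALG-1::HA::ALG-2, experiment 2 wild type adult 2 with alg-1(gk214) and alg-2(ok304), experiment 3 wild type adult 3 with alg-5(tm1163) and the HA::ALG-5 pair, and experiment 4 all L4 libraries. Total reads per small RNA library, recovered from the step of the piRNA values, had a lowest value of 1622092 (wild type adult 2) and a highest of 24518714 (GFP::ALG-5 input). One read was therefore worth at most 0.616 RPM, far below the lowest member in wild type adults. In L4 mRNA, alg-1 was at 30.3 ± 2.05 FPKM in wild type and 13.0 ± 2.88 in alg-1(gk214), alg-2 at 15.3 ± 1.96 and 2.06 ± 0.114 in alg-2(ok304), and alg-5 at 9.35 ± 1.17, 10.2 ± 1.37 in alg-5(tm1163) and 0.720 ± 0.241 in alg-5(ram2) (SD, n = 3). The gene-level value of alg-5 thus does not mark the tm1163 libraries.

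By their kind in the table, the 300 members are 234 genes, 33 pseudogenes, 24 entries marked CDS and 9 transposons. RefSeq names 262 of them, of which 201 are protein-coding, 56 are pseudogenes, 4 are lncRNA genes and 1 is another ncRNA gene. Pseudogenes make up 18.7% of the members and 9.07% of the other 2107 entries. Protein-coding genes make up 67% and 71.6%, and entries of the transposon kind 3% and 8.64%. F-box genes of the fbxa, fbxb and fbxc classes, which encode adaptors for protein degradation, number 10, or 3.33% of the members and 4.08% of the others. Genes of the bath class, with paired BTB and MATH domains, number 6, or 2% and 0.712%. Of 261 members with a place in the RefSeq gene order, 24 have another member 1 or 2 places away. Of the 1991 placed entries of the whole table, which lie denser, 975 have another entry that close.

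Some members are not independent measurements. The coding entry T05C3.3 and WBTransposon00000275 have the same value in every library, as do AC8.10 and AC8.3. C36A4.11 and K06B9.6 differ by at most 0.000425 on the log2 scale. In a set made up of F30F8.10, F30F8.4, K10E9.2, Y38H6C.6 and the transposons WBTransposon00000092 to WBTransposon00000096, each entry lies within 0.1 on the log2 scale of at least 1 other in all 18 libraries. The authors' counting may have split shared reads among such entries, and their separate values are uncertain.

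The levels fall off steeply from the first members. WBTransposon00000216 was the most abundant entry, at 6207, 4822 and 4216 RPM in wild type adults 1, 2 and 3. The pseudogene F32A11.5 followed at 4834, 3903 and 3007 RPM. The third was eri-6, which encodes part of a helicase that acts with the Argonaute ERGO-1 and is joined to its other part by trans-splicing, at 4716, 3480 and 3508 RPM. Wild type adult 1 was the highest of the 3 in each of these entries.

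The next 9 entries held mean levels of 2678 to 3784 RPM. They are the pseudogene Y23H5A.1 (cars-2 in RefSeq), the pseudogenes Y39E4B.14, F37H8.2 and K08B4.5, the CDS entry T27C5.9, got-1.2, an aspartate aminotransferase gene, and F37D6.3, W03H9.2 and W09C5.12. Together the first 12 entries held 17.0% of the members' summed level and 11.13% of the whole Mutator table, and all 300 held 65.6% of the table. The median member was at 536 RPM and the median of the other entries at 36.7 RPM. The coefficient of variation over the 3 wild type adults had a median of 14.3% and was under 25% in 267 members. It was highest, at 44.6%, for pvf-1, which encodes a growth factor of the PDGF and VEGF family.

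At the lower limit the ranks are close. The last members were W06A11.4 at 271.2 RPM, C36C9.4 at 271.1 RPM and K09E9.3 at 269.9 RPM. The first entries outside were ZK402.3 at 269.65 RPM, R09H3.3 at 269.2 RPM and bath-23 at 268.2 RPM. These differences are far below the spread between wild type adults, so the limit separates no natural group.

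The members' summed level followed the whole siRNA class. In the 18 libraries it made up 62.8% to 68.0% of the Mutator table, although the sum itself ran from 22197 RPM in the GFP::ALG-5 immunoprecipitate to 299444 RPM in the HA::ALG-1 input. The 3 wild type adults summed to 283369, 239815 and 223118 RPM, and the 3 L4 libraries that are not immunoprecipitates to 205918, 207980 and 229422 RPM. The lowest adult library among the mutants was alg-1(gk214), at 172670 RPM.

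**Figure D1:**
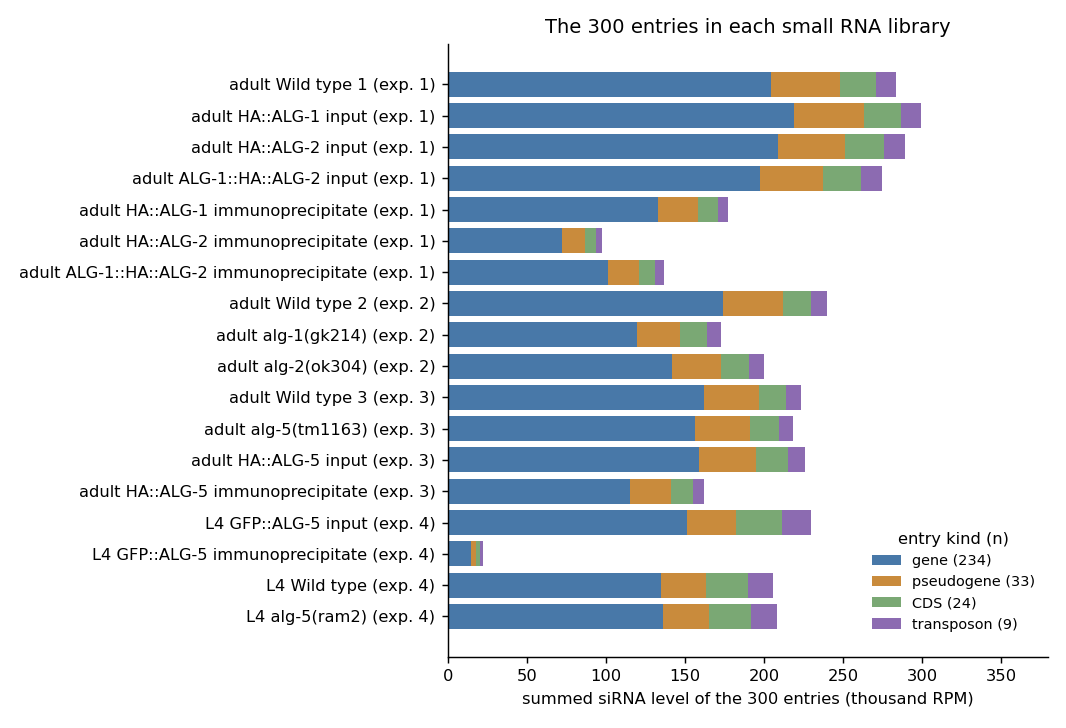
Summed siRNA level of the 300 entries (horizontal axis, 1000 RPM) in each of the 18 small RNA libraries, split by kind of entry, with the experiment number in brackets. Immunoprecipitates hold less than their inputs in every pair, from 162182 against 225725 RPM for HA::ALG-5 to 22197 against 229422 RPM for GFP::ALG-5.

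The first comparison was between L4 larvae and adults, using the 3 L4 libraries and the 7 adult libraries that the choice of members did not use (3 mutants and 4 inputs). Of the 300 members, 91 were lower in L4 and 27 were higher (limma on log2(RPM + 1), adjusted p under 0.05). Over all 2432 tested entries 38.2% were lower and 5.02% were higher, against 30.3% and 9% of the members. The median difference was -0.22 among the members and -0.29 over all entries on the log2 scale. All L4 libraries are from experiment 4 and all adults from experiments 1 to 3, so stage and experiment cannot be told apart. The 7 adults share their stage with the 3 wild type adults that chose the members, so the rule favours members lower in L4.

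The largest differences were nearly complete losses. M02F4.1 had 20.2, 24.1 and 22.1 RPM in L4 wild type, alg-5(ram2) and GFP::ALG-5 input, and from 403 to 1784 RPM in the 7 adults, with a median of 1272 RPM. The log2 difference was -5.60 ± 0.37 (SE). The pseudogene K08B4.5, seventh in wild type adults, had 52.1, 63.4 and 50.4 RPM in the same L4 libraries and 946 to 4227 RPM in adults, a difference of -5.55 ± 0.37. F32A11.5, second in wild type adults, had 92.2, 136 and 99.1 RPM in L4 and 947 to 5136 RPM in adults. No L4 library reached the lowest adult library in any of these genes, which for M02F4.1 and K08B4.5 was a condition for being named.

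C32B5.6 had 8.37 to 10.8 RPM in L4 and a median of 615 RPM in adults. T22B2.2 had 6.16 to 8.69 RPM and a median of 402 RPM. The gene skr-21, related to the Skp1 subunit of ubiquitin ligases, had 4.65 to 5.56 RPM and a median of 263 RPM. Y60A9A.3 had 8.36 to 10.1 RPM and a median of 437 RPM. Their differences ran from -5.54 to -5.22 on the log2 scale. By more than 1 on the log2 scale 64 members fell, or 21.3% against 33.1% of all tested entries. By more than 2 it was 37, or 12.3% against 20.0%, and by more than 3 it was 25, or 8.33% against 8.88%. By more than 4 it was 19, or 6.33% against 2.75%, so the members' share was above that of the table at the last of these limits only. The other entries had a median of 36.7 RPM in wild type adults and so have less room to fall that far on log2(RPM + 1). Nothing about the members is read from this share. In these 6 named genes alg-1(gk214) was the lowest adult library.

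The members sid-1 and rde-11 encode factors of RNA interference itself. For sid-1, a channel that imports double-stranded RNA, the L4 libraries had 61.4 to 81.0 RPM and the 7 adults 169 to 351 RPM, a log2 difference of -1.83. For rde-11, needed to amplify siRNAs, they had 66.9 to 96.3 RPM against 214 to 401 RPM, a difference of -1.96. Both passed the threshold, with adjusted p of 4.26e-05 and 2.04e-05 from limma. The groups did not overlap in either gene.

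The increases in L4 were smaller, which choosing members by high adult levels favours, so nothing about the members is read from this contrast. The most abundant entry, WBTransposon00000216, was among them, with 9677, 9266 and 10939 RPM in the L4 libraries and 4365 to 7155 RPM in adults, a log2 difference of 0.80 ± 0.16. The pseudogene Y17D7C.3 had 2693, 3299 and 2994 RPM in the L4 libraries and 445 to 2295 RPM in adults, a difference of 1.59 ± 0.49. Its call was lost under 3 of 15 alternatives and that of the gene lido-8 under 1. Its adults fall into separate ranges, with 445 to 720 RPM in alg-1(gk214), alg-2(ok304), HA::ALG-1 input and HA::ALG-2 input and 1751 to 2295 RPM in the other 3, and 1672 to 2566 RPM in the wild type adults. ZC15.4, C03A7.2, Y20F4.9, lido-8 and ZK262.8 were higher by 0.93 to 1.08. In Y20F4.9, for example, the L4 libraries held 1629 to 2294 RPM and the adults 763 to 1271 RPM. Only 6 members were higher by more than 1 on the log2 scale.

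The increases were uneven over the kinds of entry. Of the 33 CDS and transposon members, 10 were higher in L4 and 0 were lower, whereas of all 385 tested entries of these kinds 17 were higher and 23 were lower. The 10 were 8 CDS entries and 2 transposons. Some of the 33 are the identical or near copies named above and do not count as separate measurements. Of the 234 gene members 13 were higher and 79 lower, or 5.56% and 33.8%, beside 4.82% and 45.7% of all gene entries. Of the 33 pseudogene members 4 were higher and 12 lower, or 12.12% and 36.4%, beside 8.43% and 29.2%.

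Libraries without overlap gave a similar picture, with 77 members below every adult library and 31 above, beside 32.2% and 5.43% of all tested entries. When each library was rescaled to the same Mutator sum, the median over all entries moved from -0.29 to -0.13, and 57 members were higher and 102 lower. No choice tried moved the count of 118 members by more than 1.5 times, but the 27 higher members became 16 without the GFP::ALG-5 input and 57 after rescaling.

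**Figure D2:**
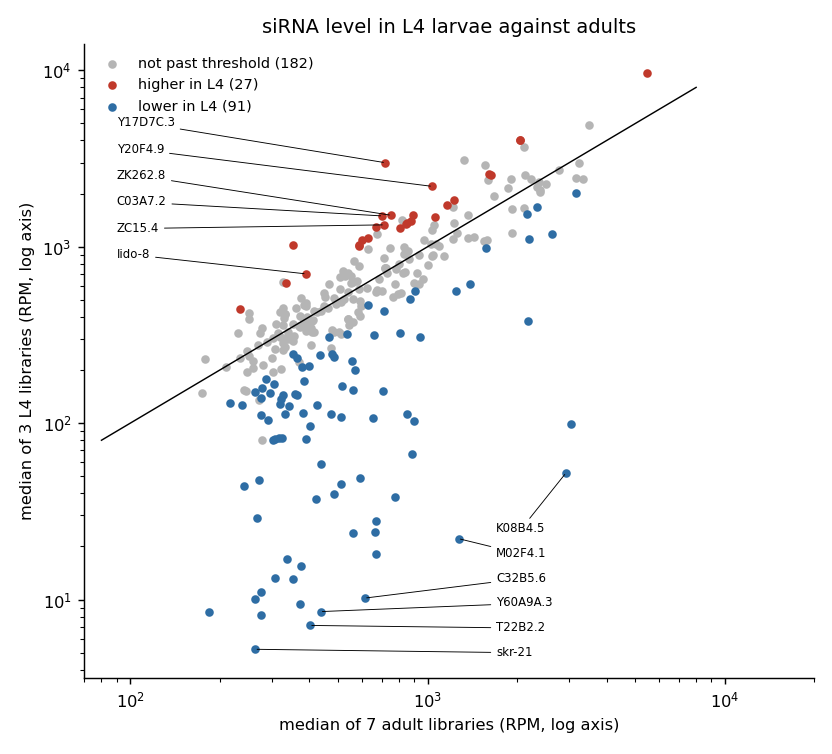
Median siRNA level of each member in 7 adult libraries (horizontal axis, RPM, log scale) and in 3 L4 libraries (vertical axis, RPM, log scale), with the line of equal levels and the genes named in the text. The 91 members lower in L4 spread down to 5.23 RPM. The 27 higher members lie above the line, and 6 of them had a log2 difference of more than 1.

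The single mutant libraries were compared with wild type with no test, since each genotype has 1 library. In adult alg-1(gk214), 85 members were lower than the mean of the 3 wild type adults by more than 2-fold on the log2(RPM + 1) scale and 4 were higher. Over all entries 36.0% were lower and 2.51% higher. After rescaling to the same Mutator sum 44 members were lower and 11 higher. The rule used the 3 wild type adults, which favours members that lie below them elsewhere, so nothing about the members is read from these counts or from those for the other adult mutants. The median member differed by -0.57, and by -0.53 against wild type adult 2 of the same experiment. Against that library alone 79 members were lower and 3 higher. In 224 members the mutant lay below all 3 wild type adults and in 32 above them, beside 67.0% and 11.8% of all entries.

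E01G4.5, on the list of known 22G-RNA targets used below, had 1488, 1182 and 1129 RPM in the wild type adults and 81.5 RPM in alg-1(gk214). F15D4.5 had 1476, 1619 and 1812 RPM against 124 RPM. For unc-10, which encodes the RIM protein of the synaptic active zone, the values were 352, 354 and 394 RPM against 33.2 RPM. In HA::ALG-1 input, which carries the alg-1 transgene in alg-1(gk214) and belongs to experiment 1, the same genes had 1591, 1612 and 338 RPM. Each lay within or close to the wild type range there. The ALG-1::HA::ALG-2 input, tagged alg-2 in alg-1(gk214) and also of experiment 1, had 853 RPM for E01G4.5. Transgene and experiment cannot be told apart here.

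In the other direction Y17D7B.4 had 259, 528 and 270 RPM in wild type adults and 1318 RPM in alg-1(gk214). W04B5.2 had 445, 856 and 687 RPM against 1649 RPM. C36A4.14, a pseudogene, had 532, 553 and 512 RPM against 1133 RPM. Wild type adult 2, of the same experiment, was the highest wild type adult in all of these. The mutant exceeded it by 1.32, 0.95 and 1.03 on the log2 scale, so the 2-fold call of W04B5.2 does not hold within the experiment.

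Members that were low in L4 were also low in adult alg-1(gk214) and, to a smaller extent, in adult alg-2(ok304). With L4 wild type set against wild type adult 1, and alg-1(gk214) against wild type adult 2, no library is shared, and the differences correlated across the 300 members with Pearson's r = 0.853 and Spearman's rho = 0.858. Among 2064 other entries of at least 10 RPM they correlated with r = 0.811, so the relation is not particular to the members. The 47 members under -2 in L4 had a median of -2.07 in alg-1(gk214), and 44 of them were lower there by more than 2-fold. The other 253 had a median of -0.44, and 35 were lower by more than 2-fold. For adult alg-2(ok304), set against wild type adult 2, the correlation with the L4 differences was r = 0.664 and rho = 0.792. The same 47 members had a median of -0.67 there, and the other 253 a median of -0.21. The relation was thus seen with alg-2(ok304) too, but both mutants belong to experiment 2 and were set against the same library, wild type adult 2. The mutants cannot be told apart here from that library and experiment. For adult alg-5(tm1163), set against wild type of its own experiment, r was 0.04 and rho 0.109. Genes within a library are not independent replicates, and all points of a comparison share 4 libraries. The references are all wild type adults that the rule used, so these values are a description. The labels give 68 h for the adults of alg-1(gk214) too and state a later collection only for its mRNA samples.

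**Figure D3:**
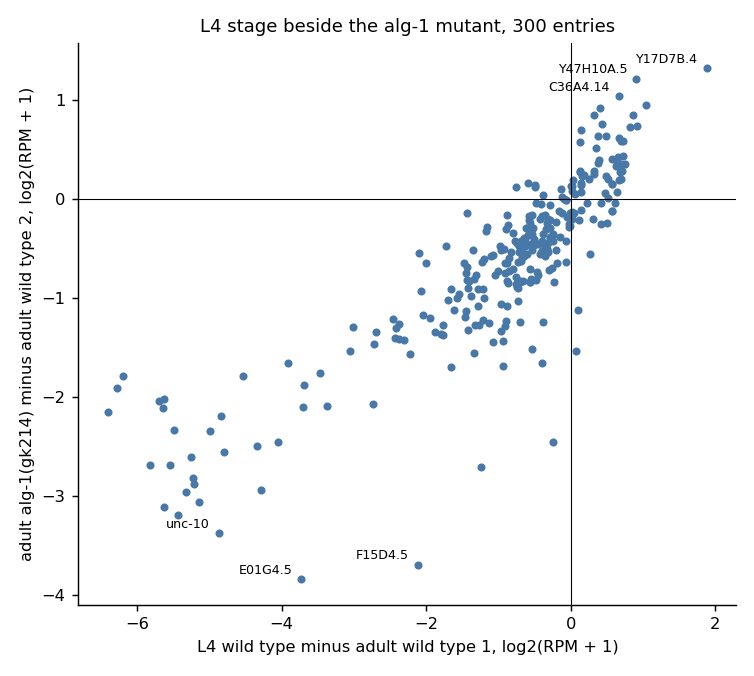
Each point is 1 of the 300 members: the difference of L4 wild type from wild type adult 1 (horizontal axis, log2(RPM + 1)) and of adult alg-1(gk214) from wild type adult 2 (vertical axis, log2(RPM + 1)). The 47 members under -2 on the horizontal axis have a median of -2.07 on the vertical axis, and E01G4.5, F15D4.5 and unc-10 lie lowest.

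In adult alg-2(ok304) 12 members were lower by more than 2-fold and 1 was higher, beside 7.57% and 1.64% of the table, and after rescaling 6 were lower and 2 higher. The median member differed by -0.35. Below all 3 wild type adults lay 192 members, beside 48.1% of the table, and above them 22, beside 15.6%. The farthest below was Y17D7C.3, at 445 RPM against 2566, 1943 and 1672 RPM in wild type. The calponin gene cpn-4 had 140 RPM against 398, 495 and 458 RPM, and Y110A2AL.10 had 226 RPM against 757, 571 and 511 RPM. The member past 2-fold upward was Y17D7B.4, at 786 RPM, followed by W04B5.2 at 0.82 and the near copies C36A4.11 and K06B9.6 at 0.59 on the log2 scale. Y17D7B.4 differed by only 0.57 from wild type adult 2 of its own experiment, so this call does not hold within the experiment.

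The alg-5 mutants were each set against wild type of their own stage. In adult alg-5(tm1163) 5 members were lower and 2 higher by more than 2-fold, beside 2.34% and 2.88% of the table. In L4 alg-5(ram2), set against the single L4 wild type library, 4 were lower and 7 higher, beside 1.56% and 7.57%. In alg-5(tm1163) 146 members lay below all 3 wild type adults and 29 above, beside 35.9% and 27.6% of the table. The member medians were -0.19 and -0.03, and -0.03 for alg-5(tm1163) against wild type adult 3 of its experiment.

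Both alleles were lower than wild type by more than 2-fold in 2 members, pan-1 and W06A11.4, beside 0.617% of the table. For pan-1, which encodes a transmembrane protein with leucine-rich repeats, wild type adults had 569, 727 and 817 RPM and alg-5(tm1163) 165 RPM. L4 wild type had 180 RPM and alg-5(ram2) 62.8 RPM. The HA::ALG-5 input, the transgene in alg-5(tm1163), had 495 RPM, and the GFP::ALG-5 input had 146 RPM, so both tagged strains lay closer to wild type of their stage than the mutants did. The gene was also low in adult alg-1(gk214), at 224 RPM, and alg-2(ok304), at 350 RPM.

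The pseudogene W06A11.4 had 304, 255 and 254 RPM in wild type adults, 77.4 RPM in alg-5(tm1163) and 114 RPM in HA::ALG-5 input. In L4 it had 231 RPM in wild type, 90.8 RPM in alg-5(ram2) and 266 RPM in GFP::ALG-5 input. It had 80.5 RPM in alg-1(gk214). Its values were whole reads, within 0.02 of a read, in 0 of 12 libraries tested for this, so its level is made of fractions of reads. The L4 mRNA of neither gene differed at the threshold in either allele: pan-1 was at 133 FPKM in wild type, 143 in alg-5(tm1163) and 127 in alg-5(ram2), with adjusted p of 0.811 and 0.988 from limma.

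The other members farthest from wild type in the alg-5 mutants did not move in both. In alg-5(tm1163), pvf-1 had 101 RPM against 177, 479 and 382 RPM, Y47H10A.5 had 2944 RPM against 1216, 1081 and 1364 RPM, and anc-1, which encodes the nuclear anchorage protein, had 608 RPM against 255, 243 and 318 RPM. The anc-1 level was also high, at 579 RPM, in HA::ALG-5 input, which carries the same deletion, and against wild type adult 3 alone its difference of 0.93 is under 2-fold. The caspase-like gene csp-1 had 947 RPM against 579, 666 and 661 RPM, which is under 2-fold.

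In L4 alg-5(ram2) several differences rest on the L4 wild type library. F15D4.5 had 340 RPM in L4 wild type, 1134 RPM in alg-5(ram2) and 1143 RPM in GFP::ALG-5 input. Y46G5A.43 had 158, 480 and 422 RPM in the same order. The pyruvate kinase gene pyk-1 had 318, 87.2 and 135 RPM. In these 3 the tagged strain lay with the mutant, whereas T27E7.10 had 29.7, 97.3 and 37.2 RPM, with the tagged strain close to wild type.

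The immunoprecipitates of the microRNA-binding Argonautes held less of the members' siRNA than their inputs. All 5 constructs together gave 270 members lower and 0 higher (limma with the construct as a block, adjusted p under 0.05), beside 89.5% and 0.0% of all tested entries. The median was -1.40 on the log2 scale among the members and -1.37 over the table. In 295 members all 5 pairs had the same sign. This is a shift of the whole class on a scale where all reads of a library share 1 total: the microRNA share rose from 16.04% to 60.1% in the HA::ALG-1 pair, from 15.8% to 77.3% for HA::ALG-2, from 13.0% to 68.3% for ALG-1::HA::ALG-2, from 17.9% to 36.7% for HA::ALG-5 and from 31.04% to 85.2% for GFP::ALG-5. The part of that rise in the members' decrease was not tested. Rescaling each library to the same Mutator sum cannot test it, since the members hold 62.8% to 68.0% of that sum. It removes any shift of the whole class, and the members' median became 0.04. Such rescaling left 4 members higher and 1 lower. In the 3 pairs of experiment 1 alone, an alternative added after the data were seen, rescaling left 131 higher and 95 lower.

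The count depends on single pairs. It was 15 without the HA::ALG-2 pair, 51 without ALG-1::HA::ALG-2 and 138 without HA::ALG-1. It was 282 without HA::ALG-5 and 291 without GFP::ALG-5. The members' median difference was -0.73 in HA::ALG-1, -1.53 in HA::ALG-2, -0.97 in ALG-1::HA::ALG-2, -0.45 in HA::ALG-5 and -3.32 in GFP::ALG-5. In the 6 libraries of experiment 1 other than wild type adult 1, which are the inputs and immunoprecipitates of the first 3 constructs, 3.41% to 4.15% of Mutator values were whole reads, beside 30.0% to 44.4% in the other libraries. Their siRNA values may therefore have been scaled differently, whose part in these differences was not tested. No immunoprecipitate from untagged animals was analysed here, so the level that beads alone retain is unknown.

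Within this shift 15 members were the lowest in experiment 1. Their difference was under -2 on the log2 scale in all 3 constructs of that experiment, a limit chosen after the values were seen. They are 5% of the members, and 80 of the 1730 entries with at least 10 RPM in every input, or 4.62%, did the same, so the members do not stand out in number. In HA::ALG-1 the 15 ran from -4.70 to -2.03, with a median of -3.63, and the other 285 from -1.84 to -0.25. In HA::ALG-2 the 15 ended at -2.45 and the others began at -2.42, and in ALG-1::HA::ALG-2 these values were -2.30 and -1.998. A further 27 members had a mean over the 3 constructs between -2 and -1.5, so the limit, not a gap, sets the group. In HA::ALG-5 the 15 ran from -0.90 to -0.35, with a median of -0.72, and the others from -1.305 to 0.13, with a median of -0.44. In GFP::ALG-5 they ran from -3.33 to -2.86, inside the others' range of -4.77 to -1.23.

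Y47H10A.5 had the largest mean difference, -3.68 ± 0.59 (SE). In this fit the SE comes wholly from the spread fitted by level over all entries, not from a gene's own pairs. The same holds for the calls above. The differences of Y47H10A.5 in single pairs ran from -5.35 to -0.35. Its level went from 1467 RPM in the input to 55.5 RPM in the immunoprecipitate of HA::ALG-1, from 1692 to 40.4 RPM for HA::ALG-2 and from 2896 to 113 RPM for ALG-1::HA::ALG-2, but from 2121 to 1667 RPM for HA::ALG-5. Y17D7B.4 went from 295 to 11.7 RPM, from 290 to 8.92 RPM and from 353 to 20.8 RPM in experiment 1, and from 411 to 242 RPM for HA::ALG-5. H09G03.1 went from 301 to 16.6 RPM for HA::ALG-1 and from 302 to 168 RPM for HA::ALG-5. W04B5.2, K06B9.6 and C36A4.11 followed, the last a near copy of K06B9.6 in these counts.

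The rest of the 15 are Y59H11AR.6, Y17D7C.3, E01G4.5, E01G4.7, C44B11.6, F39E9.10, K02E2.6, C36A4.14 and F39E9.7. Of a list of 21 known 22G-RNA target genes, 13 are members, and 8 of those 13 are among the 15. These are E01G4.5, E01G4.7, K02E2.6, F39E9.7, W04B5.2, Y17D7B.4, C44B11.6 and Y47H10A.5. The other 5, W05H12.2, C38D9.2, F37D6.3, bath-45 and F15D4.5, are among the other 285. The list was drawn up with earlier results of these data known, and its overlap with the 15 is a description. In the stage comparison 2 of the 15 were higher in L4 (Y17D7C.3 and Y17D7B.4) and 1 was lower (E01G4.5).

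**Figure D4:**
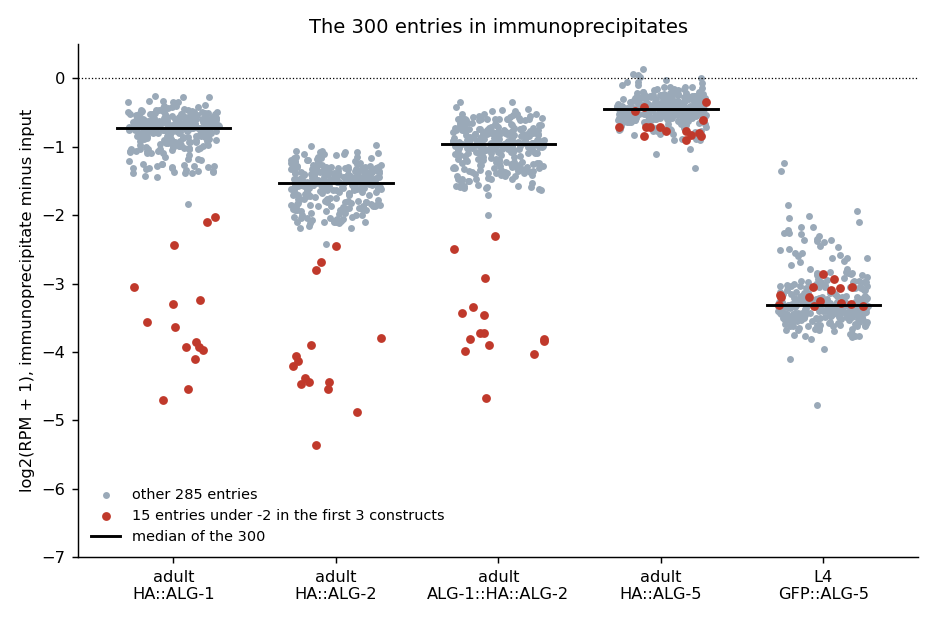
Difference of log2(RPM + 1) between immunoprecipitate and input (vertical axis) for the 300 members in each of 5 constructs, with the median as a bar. The 15 members under -2 in the first 3 constructs are chosen by that limit and lie lowest there, and they lie within the range of the rest for HA::ALG-5 and GFP::ALG-5.

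The mRNA table holds 234 of the 300 members. Of these 15 are listed at 0 in all 15 libraries and 187 passed the filter of a mean of 1 FPKM in at least 1 genotype. The median member was at 3.40 FPKM in wild type L4 larvae, beside 5.47 FPKM for the other Mutator entries and 5.97 FPKM for all 20517 genes of the table. In wild type 68.8% of the members reached 1 FPKM and 34.6% reached 10 FPKM, against 67.3% and 42.0% of all genes. FPKM is per length, so these levels can be compared between genes, but FPKM values give no depth, which is therefore unknown for mRNA.

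Heavy siRNA coverage occurred at high and at low mRNA levels. Across the 234 members siRNA and mRNA level in wild type L4 correlated with r = 0.0935 and rho = 0.0365. These values are a description, since the members come only from the top of the adult siRNA range, which can lower a correlation. RPM is also not divided by gene length, whereas FPKM is. The highest was iff-2, a translation factor gene of the eIF5A family, at 1309 FPKM in wild type L4, followed by Y94H6A.10 at 890, the cuticle collagen gene col-71 at 552, the bZIP transcription factor gene zip-2 at 405, cpn-4 at 278 and got-1.2 at 268 FPKM. At the other end are genes with the largest siRNA decrease from adults to L4. Of these, K08B4.5 had 0.181 FPKM in wild type L4, skr-21 had 1.45 FPKM, and M02F4.1, C32B5.6 and T22B2.2 were listed at 0 there.

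In alg-1(gk214) the mRNA of 7 members was higher and of 10 lower among 187 tested (limma over all 15 libraries, adjusted p under 0.05). The background was 6.39% higher and 8.41% lower of 15174 genes, so the members' 3.74% and 5.35% lie below it. At an unadjusted p under 0.05 there were 40 members, or 21.4%, beside 28.1% of all genes. With only the libraries of the compared genotypes 7 members were called. The largest decrease was col-71, with 666, 617 and 374 FPKM in wild type and 29.8, 28.2 and 55.8 FPKM in the mutant. The log2 difference was -3.85 ± 0.31 (SE), and the groups lay far apart.

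The zinc-finger gene znf-782 fell from 13.4, 9.93 and 10.3 FPKM to 1.17, 3.26 and 3.71 FPKM. Y47H10A.5 fell from 29.0, 26.5 and 8.33 FPKM to 6.43, 5.53 and 3.60 FPKM, a call that 4 of 11 alternatives lost. The cadherin gene cdh-12 and strm-1, a sterol methyltransferase gene, fell by 1.67 and 1.65 on the log2 scale. The others that fell were Y105E8A.13, parn-1, which encodes an exonuclease that trims piRNAs, dpy-31, a protease gene of cuticle assembly, dlk-1, a kinase gene of axon regeneration, and pyk-1, with log2 differences from -1.302 to -0.35. Marker genes of the hypodermis, the tissue that makes the cuticle, summed to 320 to 383 FPKM in alg-1(gk214) and 986 to 1270 FPKM in wild type. Intestine markers summed to 362 to 397 FPKM against 692 to 949 FPKM. Markers of adult yolk, which mark a later stage, summed to 85.5 to 117 FPKM against 32.7 to 44.002 FPKM. The part of these shifts in the members' changes was not tested.

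C38D9.2, 1 of the listed known targets, rose from 4.04, 4.71 and 6.13 FPKM to 22.3, 30.0 and 25.1 FPKM, a log2 difference of 2.17 ± 0.27 with an adjusted p of 0.000104 (limma). Its adult siRNA level was 225 RPM in alg-1(gk214) against a wild type mean of 592 RPM. F13C5.2 rose from 9.76, 12.0 and 12.105 FPKM to 24.5, 29.1 and 26.4 FPKM, and its siRNA was at 89.8 RPM against 433 RPM. Lower siRNA went with mRNA changes in both directions. Against wild type adult 2 it was lower for 9 of the 10 members whose mRNA fell and 6 of the 7 whose mRNA rose. The median over all members against that library was -0.53, so most members were lower there. For dlk-1 the log2 difference was -0.46 in mRNA and -1.08 in siRNA, and for col-71 it was -3.85 and -0.91. The mRNA libraries are from L4 larvae and these siRNA libraries from adults, so the values stand side by side and are not a paired measurement.

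The lncRNA gene linc-29 had 0.695, 8.91 and 0.428 FPKM in wild type and 12.6, 42.5 and 22.3 FPKM in the mutant. Its call was lost under 8 of 11 alternatives and that of K09E9.3 under 4. K09E9.3, glit-1, pod-2, which encodes acetyl-CoA carboxylase, and zip-2 also rose, by 0.41 to 1.23. Of the 17 members called, 4 had an adult siRNA level more than 2-fold from wild type adult 2. Of all 300 members, 79 were lower and 3 higher by that limit.

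In alg-2(ok304) 5 members were higher and 10 lower, beside 4.87% and 7.08% of all genes, and 36 passed an unadjusted p under 0.05, beside 24.7%. The gene anc-1 had 22.4, 20.2 and 21.4 FPKM in wild type and was listed at 0 in all 3 mutant libraries, so no fold is given. Whether these zeros are a failed estimate cannot be told from the table, and the call rests on them. Its adult siRNA level was 268 RPM in alg-2(ok304) and 255, 243 and 318 RPM in wild type. col-71 fell by 3.32 on the log2 scale, to 46.4, 53.2 and 60.0 FPKM. C36A4.11 fell from 9.05, 22.0 and 9.19 FPKM to 0.697, 3.09 and 0.655 FPKM. The linker histone gene hil-8 fell from 6.19, 6.71 and 5.98 FPKM to 0.108, 1.35 and 0 FPKM. Of 11 alternatives 5 lost the call of hil-8 and 3 that of C36A4.11.

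Further members that fell in alg-2(ok304) were znf-782, strm-1, Y105E8A.13, cdh-12, lido-18 and Y17D7B.4, by 0.50 to 1.73. Hypodermis markers summed to 390 to 507 FPKM and intestine markers to 458 to 494 FPKM there, below the wild type ranges given above. Muscle markers summed to 1842 to 2073 FPKM against 1403 to 1433 FPKM in wild type, and yolk markers to 41.3 to 85.5 FPKM. The part of these shifts was not tested. Those that rose were glb-14, a globin gene, from 0.628, 0 and 0.404 FPKM to 2.58, 2.44 and 2.46 FPKM, F13C5.2 to 18.6, 22.3 and 22.5 FPKM, the linker histone gene his-24 from 46.4, 74.5 and 48.2 FPKM to 97.6, 112 and 91.1 FPKM, K02E2.6 from 45.5, 36.7 and 41.3 FPKM to 55.3, 60.3 and 59.9 FPKM, and pod-2, by 0.35. The glb-14 call was lost under 9 of 11 alternatives, his-24 under 5, K02E2.6 under 4 and pod-2 under 3. Leaving out the third alg-2(ok304) library left 9 of the 15 calls. In all 15 the 3 mutant libraries did not overlap wild type. Passing the threshold with 3 libraries on each side makes this likely, so it adds no support to the calls.

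In the alg-5 mutants no member passed. Limma called 0 of 187 in alg-5(tm1163) and 0 in alg-5(ram2), beside 0.033% higher and 0.0527% lower of all genes in the first and 0.033% higher and 0.257% lower in the second. At an unadjusted p under 0.05 there were 23 and 20 members, or 12.3% and 10.7%, beside 10.8% and 7.68% of all genes. The median differences were 0.02 and 0.05. Leaving out the third wild type library gave 1 call in alg-5(ram2).

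**Figure D5:**
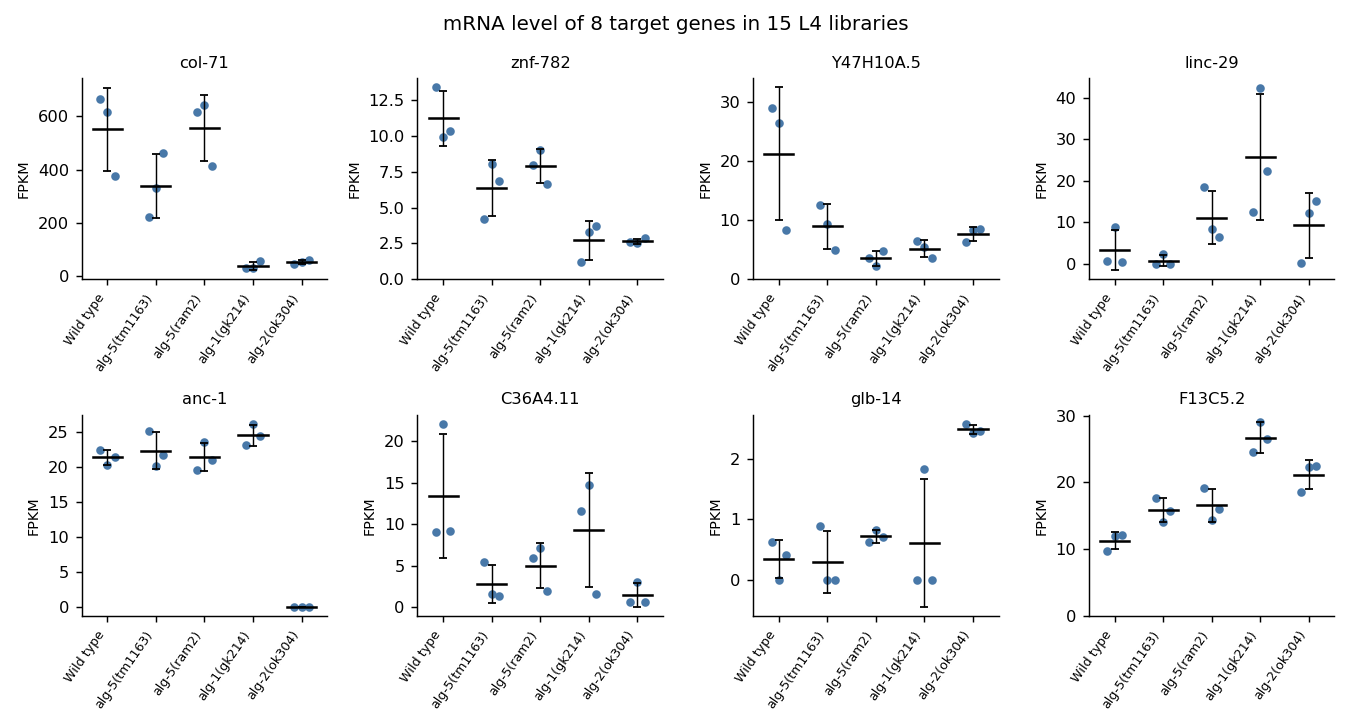
FPKM (vertical axis) of 8 members in each of the 15 L4 mRNA libraries by genotype, with the mean and SD over 3 libraries. col-71 and znf-782 are low in alg-1(gk214) and alg-2(ok304), anc-1 is listed at 0 in alg-2(ok304), possibly a failed estimate, and linc-29, glb-14 and F13C5.2 are among the genes that rose in 1 or both.

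The genes of the siRNA pathway itself were read from a list of 55, of which 51 were tested. None passed in either alg-5 mutant. In alg-1(gk214) 4 were higher: rrf-3, an RNA-dependent RNA polymerase gene, by 0.62, the WAGO gene ppw-2 by 0.55, nrde-2 of nuclear silencing by 0.54, and sid-2, needed to take up double-stranded RNA from the gut, by 0.67. The Argonaute genes sago-1 and alg-3 fell by 0.64 and 1.04. These are 7.84% and 3.92% of the list, beside 6.39% higher and 8.41% lower of all genes. In alg-2(ok304) wago-10, alg-3 and alg-4 fell by 1.23, 1.52 and 1.48 and none rose, which is 5.88% of the list beside 7.08% of all genes, so no count of the list stands far above the background. alg-3 and alg-4 act in spermatogenesis, and sperm markers summed to 163 to 229 FPKM in alg-1(gk214) and 98.8 to 142 FPKM in alg-2(ok304) against 461 to 476 FPKM in wild type, while germline markers ran from 276 to 361 FPKM over these 3 genotypes. The part of the sperm shift in these calls was not tested. Neither sid-1 nor rde-11, the members on the list, passed in any mutant.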

How the data were processed

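The authors deposited small RNA values as RPM per gene, pseudogene, CDS or transposon in 18 libraries and mRNA values as FPKM per gene in 15, per the file headers. Small RNAs of 18 to 28 nt were sequenced after an enzyme treatment that lets 22G-RNAs be ligated, per the labels' protocols. The submitters' processing notes name Trimmomatic 0.35, TopHat2, HTSeq, DESeq2 and Cuffdiff, while the genome build is not given in the sources used here. Many siRNA values are fractions of a read, so no count test was run. Both units were tested as log2(value + 1) with limma 3.58.1 (trend option), for entries with a mean of at least 1 in 1 group, with Benjamini-Hochberg adjustment over all entries tested and a threshold of 0.05. The mRNA fit used all 15 libraries. Single libraries were compared by a 2-fold limit with no test. Names and biotypes came from RefSeq (WBcel235). The fits were tested on simulated data. Members, lists and tests were chosen with earlier results of these data known. Named genes are the 12 highest in wild type adults, the 3 on each side of the limit, up to 6 largest changes per siRNA test, 5 per mRNA test and direction, 3 per single library and direction, the 6 highest mRNAs and listed genes. Stage genes were named only where L4 and adult libraries did not overlap, and immunoprecipitate genes only where all 5 pairs had 1 sign. The L4 values of F32A11.5, the 15 low members and the remaining called mRNAs were added after their values were seen.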

Additional observations from a re-analysis of the deposited data

Results flagged for a closer look

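In 6 genes with the largest decrease in L4, 1 of the 7 adult libraries stood apart from the other adults, and it was alg-1(gk214), the lowest, each time. The gap to the next library, as a share of the whole range of log2(RPM + 1), was 0.577 for M02F4.1, 0.589 for K08B4.5, 0.61 for C32B5.6, 0.702 for T22B2.2, 0.732 for skr-21 and 0.738 for Y60A9A.3. Chance flags about 1 in 20 groups, and these genes share their libraries, so they are not separate events. In each gene alg-1(gk214) still lay well above the 3 L4 libraries, though genes were named here only where L4 and adult libraries did not overlap.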

How the results depend on the processing

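With the 6 libraries of the compared genotypes alone, 7 members were called in alg-1(gk214) mRNA in place of 17. With the replicate number as a block the counts were 21 in alg-1(gk214), 18 in alg-2(ok304) and 0 in both alg-5 mutants. Same-numbered libraries correlated by -0.0255 to 0.0904 and 9 of 15 were closest to their own number, so the numbers were not taken as pairs. Leaving out 1 library in turn gave 12 to 18 calls in alg-1(gk214), 9 to 14 in alg-2(ok304), 0 to 1 in alg-5(ram2), 0 in alg-5(tm1163), 91 to 142 in the stage comparison and 15 to 291 in the immunoprecipitate comparison. Rescaling to the Mutator sum gave 5 calls between immunoprecipitate and input. In the 3 pairs of experiment 1 it gave 226 calls, 131 higher and 95 lower, an alternative added after the data were seen. Rescaling gave 55 members past 2-fold in alg-1(gk214) in place of 89, and 8 in alg-2(ok304) in place of 13. Of the recomputed values of named genes, 410 kept their direction and side of the threshold, 56 missed the threshold and none changed sign. Causes were not tested. One read is at most 0.616 RPM, so depth limits mainly the lowest L4 and immunoprecipitate values, and FPKM values give no depth.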
